A study of Homo sapiens with 13 samples.

Results

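The genes described here encode 35 oxygenases that use iron and 2-oxoglutarate to act on chromatin, DNA, RNA or the translation machinery: the Jumonji C (JmjC) proteins, the TET enzymes, the ALKBH family with FTO, and OGFOD1. They were chosen by name as genes of these families, and all 35 listed genes were measured, among 18404 genes in all. The list is not complete for JmjC genes, since KDM5C, KDM6A and others were counted with the other iron-dependent oxygenases below. Each was read from 1 transcript cluster, the set of probes that represents a gene on the array. KDM8 and TET2 each had 2 clusters, and the one with the higher mean signal was used.

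RNA came from SW480, an established human colon cancer cell line, kept for 6 h in DFO (100 mM, n = 4), Deferasirox (50 mM, n = 3), OICR623 (10 mM, n = 2) or the solvent DMSO (0.1 percent, n = 4). DFO, or deferoxamine, and Deferasirox are drugs that bind iron and are given to patients with iron overload; OICR623 is known here by its code name alone. The doses are given in the unit of the labels, which is high for cultured cells, and nothing in the labels settles whether another unit was meant. The series text calls the replicates independent experiments in this single line, and no dose is matched between compounds.

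Enzymes of this superfamily hold an iron atom in the active site and use 2-oxoglutarate and oxygen to hydroxylate their substrate. When the hydroxylated group is a methyl group on a lysine or a base, it is lost as formaldehyde, which is how JmjC proteins demethylate histones and how ALKBH proteins and FTO demethylate nucleic acids. TET enzymes oxidise 5-methylcytosine in DNA by the same chemistry. The prolyl hydroxylases that mark hypoxia-inducible factor (HIF) for degradation belong to the same superfamily, and KDM3A, KDM4B and KDM4C are known HIF target genes. The array reads mRNA only, so nothing here measures iron in the enzymes, their activity or the marks they remove.

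The 13 arrays fell into 3 levels of overall signal, with medians of 7.17 to 7.19 (high), 6.64 to 6.69 (middle) and 6.52 to 6.55 (low) on the log2 scale. The high level held DFO 1 and DMSO 1. The low level held DFO 4, Deferasirox 3 and DMSO 4, and the middle level held the other 8 arrays. DFO 1 and DMSO 1 had identical values in 8530 of 32321 transcript clusters (26.4%), against 85 to 107 clusters for pairs within the low level, 5 to 35 within the middle level and 0 between levels. KDM2A, KDM2B, KDM3B and JMJD1C were among the identical values, so for these 4 genes the high level gave a difference of 0. The origin of the identical values was not tested. The epithelial markers EPCAM, KRT8, KRT18 and KRT19 had mean log2 signals of 9.64, 12.67, 13.02 and 10.69, while the 7 fibroblast markers ranged from 3.27 (LUM) to 7.77 (COL1A1), the 5 endothelium markers from 5.16 (KDR) to 6.19 (CDH5) and the 6 leukocyte markers from 3.38 (PTPRC) to 9.18 (CD68, a lysosomal protein that other cells also make). KRT20 and CDH1, which also mark colon epithelium, were low at 5.28 and 5.52. CDX1, VIL1 and LGALS4 stood at 7.22, 7 and 6.94, below COL1A1, and CDX2 at 8.79. Only 5 of the 10 colon epithelium markers lay above the median gene. Of 10 such markers KRT19 rose (0.35 under DFO, 0.33 under Deferasirox) and CDX2 fell (-0.49 and -0.77), calls that were lost without a block, and no fibroblast, endothelium or leukocyte marker was called; the part of these shifts in the results below was not tested. Differences came from limma with the level as a blocking factor, and p-values were adjusted by Benjamini and Hochberg's method over the 18404 genes, with 0.05 as the threshold for a call. Groups of arrays from 1 line show the spread between these cultures only. Treated arrays of a level share its DMSO reference, 1 array in the high and in the low level, so their differences from it are not independent.

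KDM3A and KDM7A rose under all 3 compounds. Under DFO, ALKBH5 rose as well and RIOX2 and ALKBH2 fell, by much smaller amounts. The other 30 genes were not called under DFO, and the other 33 were not called under Deferasirox or under OICR623. At an unadjusted p under 0.05 in this limma fit there were 16, 12 and 6 of the 35. The shares of all genes were 15.7%, 18% and 10.7%. The median size of the difference, sign left out, was 0.103, 0.0972 and 0.0803 for the 35 genes and 0.0525, 0.0613 and 0.0605 for all genes. As shares of the 35 genes, 14.3% were called under DFO, 5.71% under Deferasirox and 5.71% under OICR623, and the shares of all 18404 genes were 4.6%, 5.84% and 0.734%. The Deferasirox share was thus near the background. Most of the 35 genes lay above the median gene in mean signal, and the values for all genes were not matched for signal. With only genes above the median gene fitted, more were called under DFO and Deferasirox, of the 35 and of all genes, as counted in the last section. Split by direction, 3 genes rose under DFO where 1.89% of all genes did, and 2 fell where 2.72% of all genes did. Under Deferasirox 2 rose where 2.83% of all genes did, and under OICR623 2 rose where 0.337% did. With each array centred on its median before the blocked fit, 3 genes rose and 0 fell under DFO, since RIOX2 and ALKBH2 lost their calls. All 3 comparisons share the DMSO arrays. The median difference of the 35 genes was -0.03 for DFO, -0.03 for Deferasirox and -0.03 for OICR623, and the median of all genes was 0.00 in each comparison. Without a block 0 of the 35 genes were called by limma for DFO, Deferasirox or OICR623, where 0.245%, 0.234% and 0.038% of all genes were. At an unadjusted p under 0.05 these were 1, 1 and 0 of the 35, against 1.1%, 1.67% and 0.565% of all genes.

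**Figure D1:**
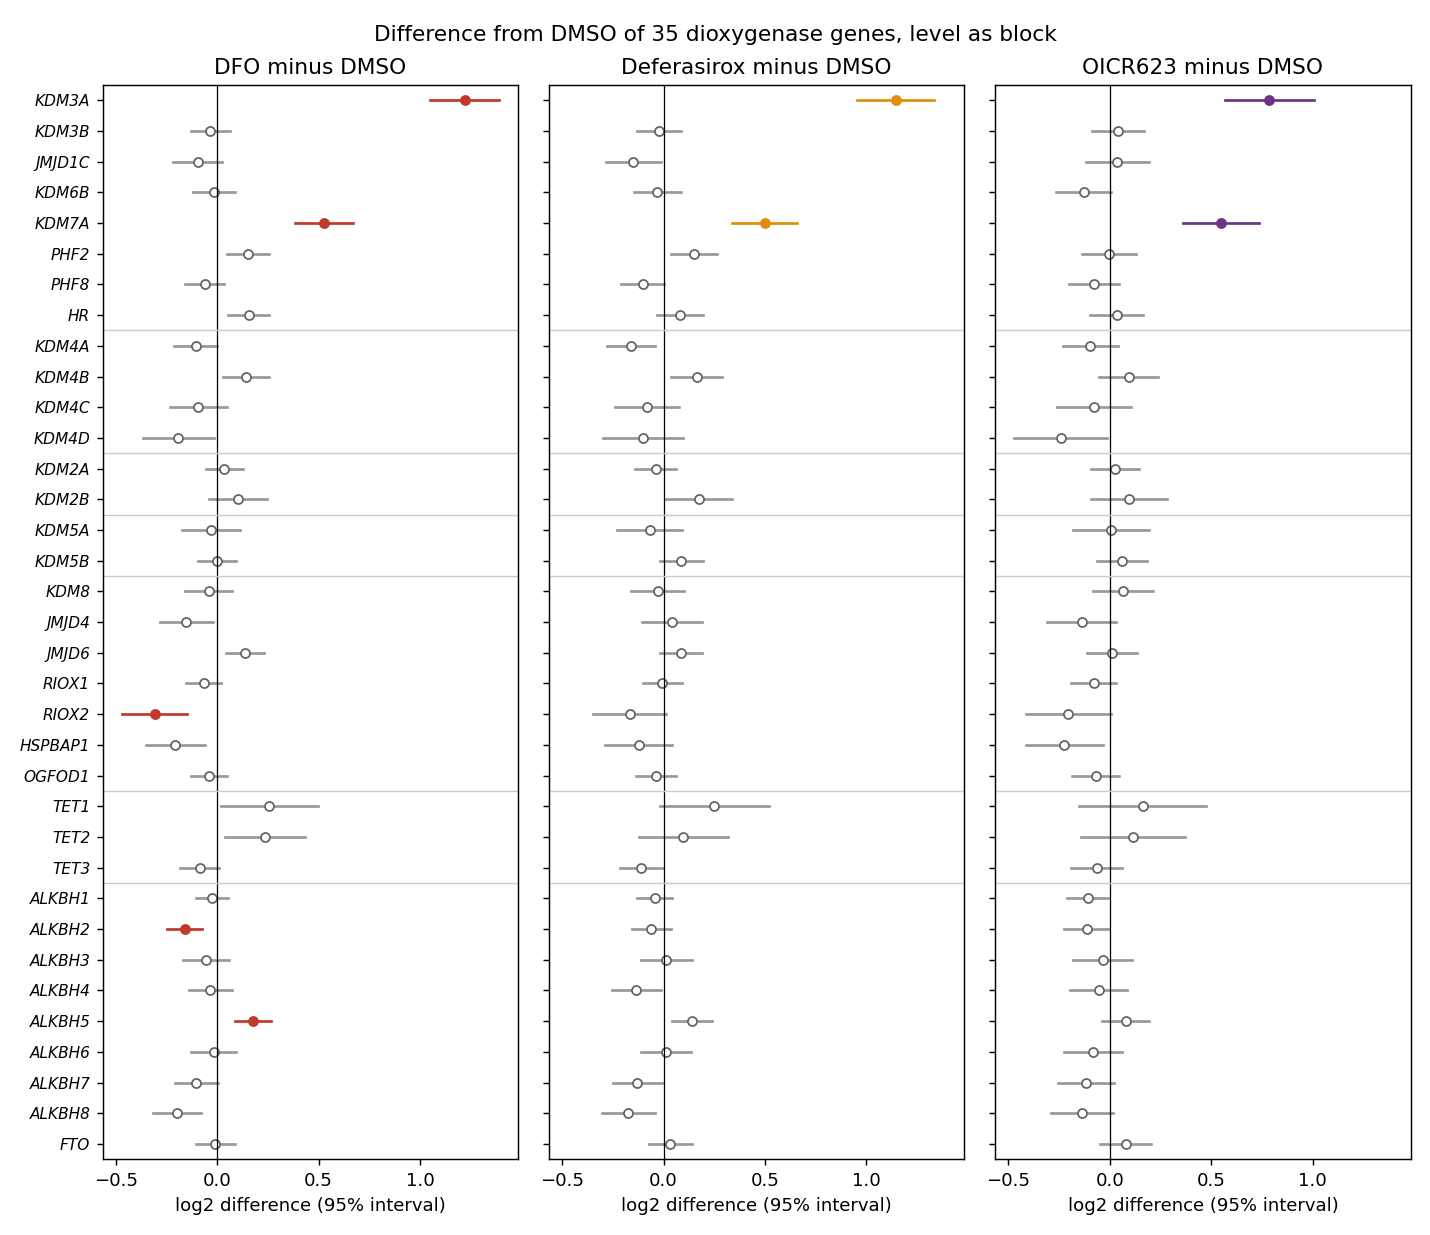
Log2 difference from DMSO, with 95% intervals, of each of the 35 genes (rows, grouped by role between grey lines) under DFO, Deferasirox and OICR623 (panels), from the blocked fit; filled points were called. KDM3A and KDM7A lie to the right in every panel, and the other points lie near 0, with RIOX2 under DFO the lowest at -0.31.

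KDM3A, which removes mono- and dimethyl groups from lysine 9 of histone H3, changed most of the 35 genes under every compound (transcript cluster 8043283). Its log2 signal was 10.14, 9.37, 9.31 and 9.67 on the DFO arrays, 9.23, 9.28 and 9.47 on the Deferasirox arrays, 8.97 and 8.83 on the OICR623 arrays, and 9.21, 8.19, 8.06 and 8.15 on the DMSO arrays. DMSO 1, of the high level, lay about 1 unit above the other DMSO arrays and above both OICR623 arrays, while every DFO and Deferasirox array lay above all DMSO arrays. Against the DMSO arrays of the same level, DFO was higher by 0.94 in the high level, 1.21 in the middle level and 1.52 in the low level. Deferasirox was higher by 1.13 in the middle level and 1.32 in the low level, and OICR623 by 0.78 in the middle level, the only one it has.

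In the fit, KDM3A rose by 1.22 under DFO (SE 0.08, adjusted p = 4.46e-06, limma), or 2.33-fold. It rose by 1.14 under Deferasirox (SE 0.09, adjusted p = 2.59e-05), or 2.21-fold. Under OICR623 it rose by 0.79 (SE 0.10, adjusted p = 0.00463), or 1.73-fold. Both OICR623 arrays contributed, at 0.85 and 0.71 above the middle-level DMSO mean. The call for OICR623 was lost without OICR623 1, where the difference was 0.72 (adjusted p = 0.0815) and the lone array was taken to vary like the other groups. It was also lost with the OICR623 and DMSO arrays alone (0.78, adjusted p = 0.069). Without a block the differences were 1.22, 0.92 and 0.50 for DFO, Deferasirox and OICR623, none of them called (adjusted p = 0.0836, 0.786 and 1), and for OICR623 that value is more than 1.5 times smaller. Blocking by replicate number within the 8 DFO and DMSO arrays kept the DFO call (adjusted p = 0.00252). Over all 13 arrays, where numbers pair no Deferasirox or OICR623 array, it gave 1.22, 0.89 and 0.37, with a call for DFO and none for the other compounds (adjusted p = 0.0175, 0.112 and 0.348).

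KDM7A, which removes methyl groups from lysines 9 and 27 of histone H3, was the second gene that rose under all 3 compounds (transcript cluster 8143341). Its log2 signal was 9.97, 9.26, 9.15 and 8.86 on the DFO arrays, 9.26, 9.16 and 8.71 on the Deferasirox arrays, 9.33 and 9.18 on the OICR623 arrays, and 9.57, 8.81, 8.62 and 8.14 on the DMSO arrays. The groups overlapped across levels: DMSO 1, of the high level, lay above every treated array other than DFO 1. Within a level they did not: DFO lay above DMSO by 0.40 in the high level, 0.49 in the middle and 0.72 in the low one, Deferasirox by 0.49 in the middle and 0.58 in the low one, and OICR623 by 0.54 in the middle one. Each of the 9 treated arrays lay 0.40 to 0.72 above the mean of its level's DMSO arrays, which themselves lay 0.10 to either side of their mean in the middle level.

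In the fit, KDM7A rose by 0.53 under DFO (SE 0.07, adjusted p = 7.1e-04), by 0.50 under Deferasirox (SE 0.07, adjusted p = 0.00213) and by 0.55 under OICR623 (SE 0.08, adjusted p = 0.0144), or 1.44-fold, 1.41-fold and 1.46-fold. The OICR623 call was lost without OICR623 1 (0.48, adjusted p = 0.149), without DMSO 3 (0.51, adjusted p = 0.0619), with the middle level alone (0.54, adjusted p = 0.0778) and with the OICR623 and DMSO arrays alone (0.54, adjusted p = 0.263). Its DFO call held when any 1 array was left out and when replicate number was the block within the DFO and DMSO arrays (adjusted p = 0.00938), and was lost with the middle level alone (0.49, adjusted p = 0.0506). Replicate number over all 13 arrays gave 0.53, 0.07 and 0.11 with no call (adjusted p = 0.326, 0.72 and 0.653). Without a block KDM7A stood at 0.53, 0.26 and 0.47, with no call (adjusted p = 1, 0.906 and 1). Levels separated only where medians lay 0.2 apart, which joins the middle and low levels, left KDM7A uncalled for all 3 compounds, and KDM3A called for all 3.

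**Figure D2:**
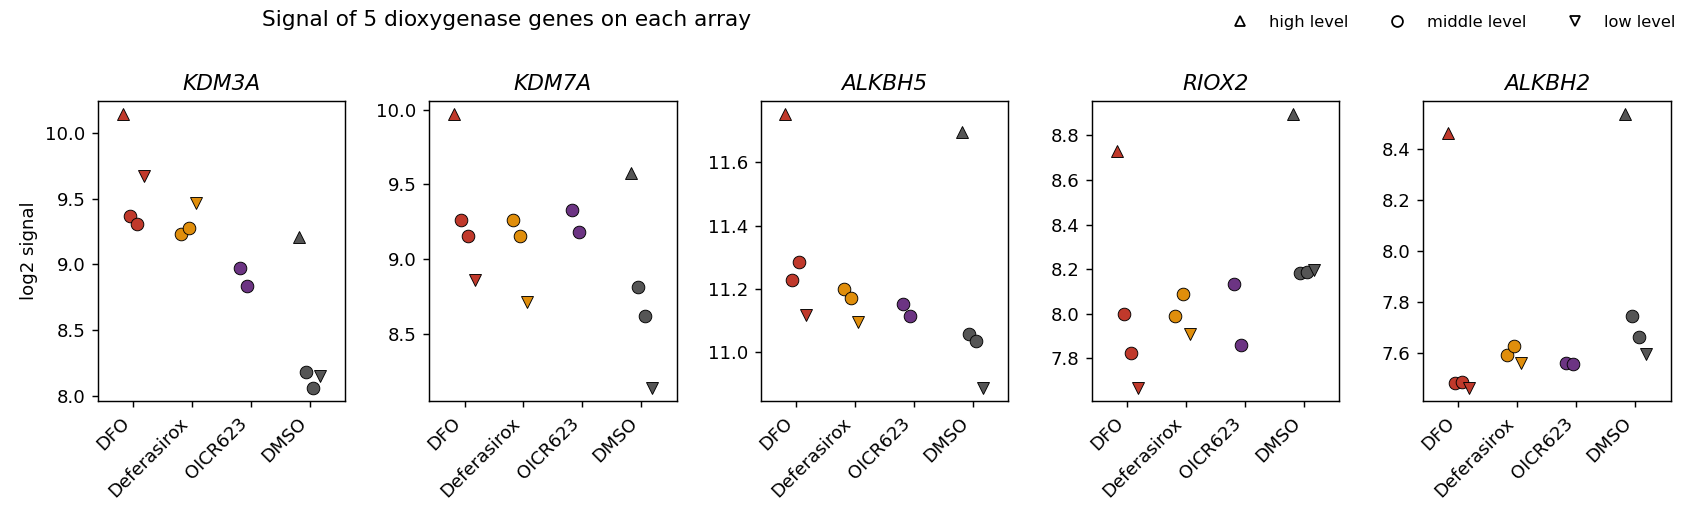
Log2 signal of the 5 called genes (panels) on every array, by group along the x axis, with the marker shape giving the level of the array. DFO 1 and DMSO 1, the high-level arrays, stand above the other arrays of their groups in every panel, and comparing markers of 1 shape shows the differences that the fit uses.

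The stretch just before the start of transcription is shown for KDM3A and KDM7A, the 2 genes that rose under every compound, and for KDM3B, the nearest relative of KDM3A, which was not called under any. Sequences are from RefSeq (GRCh38.p14), cover 250 bases before the annotated start and read 5′ to 3′ along the gene. Capitals mark the letters ACGTG or GCGTG, the core of the element that HIF binds, searched on both strands. A CACGTG is counted on both strands, since ACGTG and its complement CACGT overlap there.
KDM3A, chr2:86441121-86441370, plus strand: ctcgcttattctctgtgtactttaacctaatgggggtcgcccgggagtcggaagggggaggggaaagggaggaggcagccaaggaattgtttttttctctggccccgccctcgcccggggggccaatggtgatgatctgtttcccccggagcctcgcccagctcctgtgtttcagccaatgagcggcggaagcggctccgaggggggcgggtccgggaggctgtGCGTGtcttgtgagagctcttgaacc
KDM7A, chr7:140176984-140177233, minus strand: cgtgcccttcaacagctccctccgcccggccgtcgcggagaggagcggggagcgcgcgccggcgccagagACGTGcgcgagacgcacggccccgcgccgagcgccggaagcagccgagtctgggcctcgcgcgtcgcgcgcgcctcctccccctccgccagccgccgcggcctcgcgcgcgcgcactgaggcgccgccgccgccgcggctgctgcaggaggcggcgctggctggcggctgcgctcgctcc
KDM3B, chr5:138352435-138352684, plus strand: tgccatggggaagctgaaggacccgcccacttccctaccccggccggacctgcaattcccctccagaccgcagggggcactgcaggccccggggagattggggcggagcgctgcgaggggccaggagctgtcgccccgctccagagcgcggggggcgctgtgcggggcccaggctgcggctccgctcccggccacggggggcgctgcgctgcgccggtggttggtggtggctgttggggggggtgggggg

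The KDM3A window held GCGTG at 22 to 26 bases before the start, the KDM7A window held ACGTG at 176 to 180 bases before it, and the KDM3B window held neither string. Of the 35 genes, 31 had a promoter in the table, and 20 of these (64.5%) held at least 1 of the strings, against 51.1% of the 14230 tested genes with a promoter and 43.1% of all 27305 promoters. Among windows with a match were those of genes with no call, such as TET3, HSPBAP1 and KDM4C with 5 matches each. The strings are short and common, so a match describes the letters and not a bound site.

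Besides KDM3A and KDM7A, 6 of the 35 genes encode demethylases of lysine 9 or 27 of histone H3 outside the KDM4 family. They are KDM3B, JMJD1C, PHF8, PHF2, KDM6B and HR. None was called under any compound, and their differences lay between -0.10 and 0.15 for DFO, -0.15 and 0.15 for Deferasirox, and -0.13 and 0.04 for OICR623. KDM3B and JMJD1C, the paralogues of KDM3A, stood at -0.03 and -0.10 under DFO, -0.02 and -0.15 under Deferasirox, and 0.04 and 0.04 under OICR623. PHF8 and PHF2, the relatives of KDM7A, stood at -0.06 and 0.15 under DFO, -0.10 and 0.15 under Deferasirox, and -0.08 and -0.01 under OICR623. The 95% interval of PHF2 was 0.05 to 0.25 under DFO and 0.04 to 0.26 under Deferasirox, which left room for a small rise, but neither passed (adjusted p = 0.109 and 0.14).

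KDM6B, which demethylates lysine 27 of histone H3, had log2 signals of 9.11, 8.19, 8.20 and 8.12 on the DFO arrays, 8.18, 8.22 and 8.09 on the Deferasirox arrays, 8.06 and 8.17 on the OICR623 arrays, and 9.08, 8.26, 8.32 and 8.01 on the DMSO arrays. Its differences were -0.01 (SE 0.05), -0.03 (SE 0.05) and -0.13 (SE 0.06) for DFO, Deferasirox and OICR623. In the middle level all 6 treated arrays lay below both DMSO arrays, while DFO 1, DFO 4 and Deferasirox 3 lay above the DMSO array of their level. HR, known as the hairless corepressor and a demethylase of lysine 9, stood at 0.15 under DFO (95% interval 0.05 to 0.26), with no call.

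Of the 4 KDM4 genes, whose products demethylate lysine 9 of histone H3 and, except for KDM4D, lysine 36, none was called. KDM4B had 8.17, 7.88, 7.86 and 7.55 on the DFO arrays, 7.87, 7.83 and 7.59 on the Deferasirox arrays, 7.73 and 7.87 on the OICR623 arrays, and 8.17, 7.65, 7.76 and 7.32 on the DMSO arrays. The DFO arrays of the middle and low levels lay 0.15 to 0.23 above the DMSO mean of their level, while DFO 1 lay 0.0024 above DMSO 1. The fitted differences were 0.14 (SE 0.05, adjusted p = 0.185), 0.16 (SE 0.06, adjusted p = 0.144) and 0.09 (SE 0.07, adjusted p = 0.709).

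KDM4C had 8.29, 7.17, 7.14 and 7.12 on the DFO arrays, 7.02, 7.30 and 7.12 on the Deferasirox arrays, 7.22 and 7.10 on the OICR623 arrays, and 8.44, 7.33, 7.14 and 7.19 on the DMSO arrays. Of the 9 treated arrays, Deferasirox 2 alone lay above the DMSO mean of its level. The differences of -0.09 (SE 0.06), -0.08 (SE 0.07) and -0.08 (SE 0.08) had intervals that included 0 and reached no higher than 0.05, 0.08 and 0.11. KDM3A, KDM4B and KDM4C, named above as known HIF targets, thus gave unlike values. KDM3A was called, KDM4B lay above 0 without a call and KDM4C lay below 0 without a call. KDM4A and KDM4D stood at -0.11 and -0.19 under DFO, -0.16 and -0.10 under Deferasirox, and -0.10 and -0.24 under OICR623.

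KDM2B, a demethylase of lysine 36 that also joins a Polycomb complex, had 8.84, 8.27, 8.30 and 8.31 on the DFO arrays, 8.14, 8.46 and 8.43 on the Deferasirox arrays, 8.29 and 8.18 on the OICR623 arrays, and 8.84, 8.10, 8.13 and 8.23 on the DMSO arrays. Deferasirox 1 lay 0.02 above its level's DMSO mean, and Deferasirox 2 and 3 lay 0.35 and 0.20 above theirs. The difference for Deferasirox was 0.17 (SE 0.07, adjusted p = 0.233), and it moved with single arrays, being 0.27 without Deferasirox 1 (adjusted p = 0.0317, a call) and 0.09 without Deferasirox 2 (adjusted p = 0.579). Without a block it was 0.02. For DFO and OICR623 it was 0.10 (SE 0.07) and 0.10 (SE 0.08), with no call.

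KDM2A and the lysine 4 demethylases KDM5A and KDM5B stood between -0.03 and 0.03 under DFO, -0.07 and 0.09 under Deferasirox, and 0.01 and 0.06 under OICR623. None of the 3 was called.

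**Figure D3:**
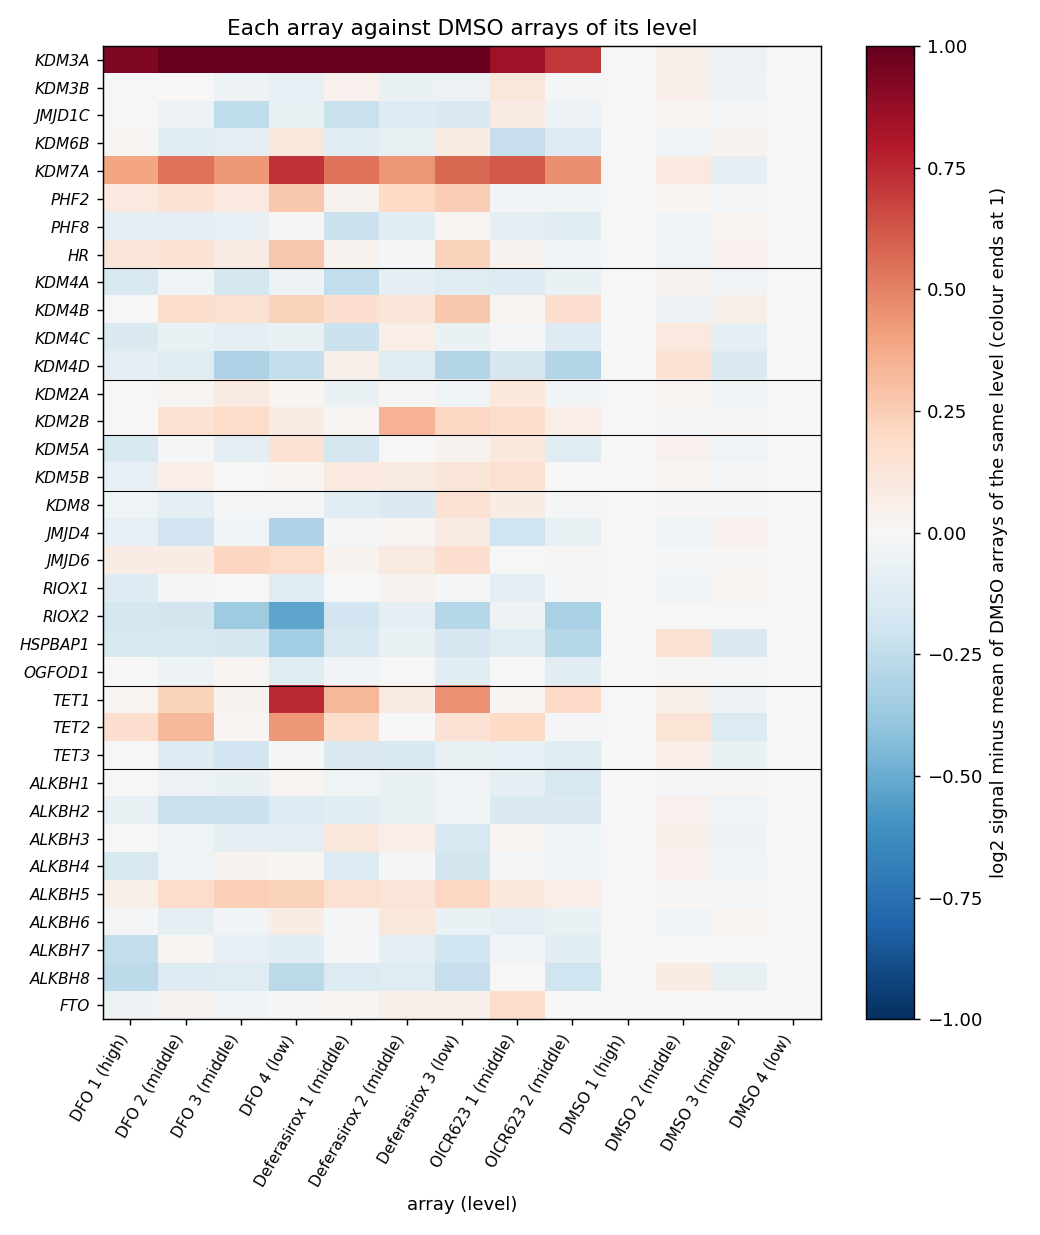
Colour gives the log2 signal of each of the 35 genes (rows, by role between black lines) on each array (columns, with its level) minus the mean of the DMSO arrays of the same level; DMSO 1 and DMSO 4 are 0 because each is the only DMSO array of its level. The KDM3A and KDM7A rows are red on all 9 treated arrays, and the DFO 1 column is paler than the other DFO columns in many rows.

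Of the 7 JmjC protein hydroxylases and related genes, RIOX2 was the 1 called, under DFO (14.3%, against 4.6% of all genes). RIOX2, a ribosomal oxygenase that hydroxylates a histidine of a large-subunit protein, had 8.73, 7.998, 7.82 and 7.67 on the DFO arrays, 7.99, 8.09 and 7.91 on the Deferasirox arrays, 8.14 and 7.86 on the OICR623 arrays, and 8.90, 8.18, 8.19 and 8.19 on the DMSO arrays. All 9 treated arrays lay below the DMSO mean of their level, by 0.05 on OICR623 1 to 0.53 on DFO 4. RIOX2 fell by 0.31 under DFO (SE 0.07, adjusted p = 0.036). That call was lost without any 1 of DFO 3, DFO 4, Deferasirox 1, Deferasirox 2, Deferasirox 3, DMSO 2, DMSO 3 or DMSO 4 (adjusted p = 0.0522 to 0.159), and when replicate number was the block within the DFO and DMSO arrays (adjusted p = 0.0738). For Deferasirox and OICR623 its differences were -0.17 (SE 0.08) and -0.21 (SE 0.09), with no call.

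JMJD6, a lysyl hydroxylase that acts on splicing factors, had 9.53, 9.02, 9.17 and 8.96 on the DFO arrays, 8.99, 9.04 and 8.94 on the Deferasirox arrays, 8.95 and 8.97 on the OICR623 arrays, and 9.45, 8.94, 8.96 and 8.78 on the DMSO arrays. Each DFO array lay above the DMSO mean of its level, by 0.07 to 0.22, and the fitted difference was 0.14 (SE 0.04, adjusted p = 0.116). It was 0.09 (SE 0.05) for Deferasirox and 0.01 (SE 0.06) for OICR623, with no call. RIOX1, a ribosomal oxygenase like RIOX2, stood at -0.07, -0.01 and -0.08 for DFO, Deferasirox and OICR623, so the pair was not called together. JMJD4, which hydroxylates a translation release factor, and OGFOD1, which hydroxylates a proline of a small-subunit ribosomal protein, stood at -0.15 and -0.04 under DFO with no call. KDM8 and HSPBAP1 were not called either, at -0.04 and -0.21 under DFO.

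The TET genes, whose products start the removal of methyl groups from cytosine, were not called under any compound. TET1 had 6.26, 5.64, 5.45 and 5.55 on the DFO arrays, 5.74, 5.50 and 5.26 on the Deferasirox arrays, 5.43 and 5.60 on the OICR623 arrays, and 6.24, 5.46, 5.36 and 4.80 on the DMSO arrays. DMSO 4 was the lowest array, and the difference of DFO 4 from it was 0.74, against 0.02 for DFO 1 from DMSO 1 and 0.13 in the middle level. The fitted differences of 0.26, 0.25 and 0.16 for DFO, Deferasirox and OICR623 had wide SEs of 0.11, 0.12 and 0.14. Without DMSO 4 the DFO and Deferasirox values were 0.14 and 0.11.

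TET2 had 8.63, 8.03, 7.73 and 8.07 on the DFO arrays, 7.89, 7.71 and 7.78 on the Deferasirox arrays, 7.91 and 7.70 on the OICR623 arrays, and 8.46, 7.84, 7.58 and 7.64 on the DMSO arrays. The DMSO arrays of the middle level differed by more than the fitted differences of 0.23 (SE 0.09), 0.10 (SE 0.10) and 0.11 (SE 0.12). Its other transcript cluster gave 0.10 (SE 0.06) under DFO, 0.02 (SE 0.07) under Deferasirox and 0.08 (SE 0.08) under OICR623, also with no call. TET3 had 8.67, 7.79, 7.74 and 7.79 on the DFO arrays, 7.78, 7.78 and 7.73 on the Deferasirox arrays, 7.84 and 7.81 on the OICR623 arrays, and 8.68, 7.99, 7.86 and 7.81 on the DMSO arrays. It was lower than its level's DMSO mean on all 9 treated arrays, by 0.0045 on DFO 1 to 0.19 on DFO 3. The differences of -0.09 (SE 0.04), -0.11 (SE 0.05) and -0.06 (SE 0.06) were not called.

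Of the 8 ALKBH genes and FTO, 1 rose and 1 fell under DFO, and limma called 0 under Deferasirox or OICR623 (4 and 2 at an unadjusted p under 0.05). The called share under DFO was 22.2%, against 4.6% of all genes. ALKBH5, which removes N6-methyladenosine from RNA, had 11.75, 11.23, 11.28 and 11.12 on the DFO arrays, 11.20, 11.17 and 11.10 on the Deferasirox arrays, 11.15 and 11.11 on the OICR623 arrays, and 11.70, 11.06, 11.03 and 10.89 on the DMSO arrays. Each of the 9 treated arrays lay above the DMSO mean of its level, by 0.06 on DFO 1 to 0.24 on DFO 3. It rose by 0.18 under DFO (SE 0.04, adjusted p = 0.0283). The call was lost without any 1 of DFO 2, DFO 3, DFO 4, DMSO 2, DMSO 3 or DMSO 4 (adjusted p = 0.0766 to 0.135), and when replicate number was the block within the DFO and DMSO arrays (adjusted p = 0.0983). Its differences of 0.14 (SE 0.04, adjusted p = 0.1) under Deferasirox and 0.08 (SE 0.05, adjusted p = 0.675) under OICR623 were not called, although eBayes with trend and robust settings called Deferasirox (adjusted p = 0.015).

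FTO, which demethylates N6-methyladenosine and its capped form in RNA, had 10.84, 10.09, 10.03 and 10.04 on the DFO arrays, 10.07, 10.11 and 10.08 on the Deferasirox arrays, 10.23 and 10.05 on the OICR623 arrays, and 10.89, 10.06, 10.05 and 10.03 on the DMSO arrays. DFO and Deferasirox arrays lay within 0.06 of the DMSO mean of their level, and OICR623 1 lay 0.17 above it. The 95% intervals of its differences were -0.10 to 0.09 for DFO, -0.07 to 0.14 for Deferasirox and -0.05 to 0.20 for OICR623.

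ALKBH2, which repairs alkylated bases in double-stranded DNA, had 8.46, 7.48, 7.49 and 7.46 on the DFO arrays, 7.59, 7.63 and 7.56 on the Deferasirox arrays, 7.56 and 7.56 on the OICR623 arrays, and 8.54, 7.75, 7.66 and 7.60 on the DMSO arrays. It was lower than the DMSO mean of the level on all 9 treated arrays, by 0.04 on Deferasirox 3 to 0.22 on DFO 2. It fell by 0.16 under DFO (SE 0.04, adjusted p = 0.0382), and the values for Deferasirox and OICR623 were -0.06 (SE 0.04) and -0.11 (SE 0.05). The DFO call was lost without any 1 array other than DFO 1 and DMSO 1 (adjusted p = 0.0506 to 0.122), and when replicate number was the block within the DFO and DMSO arrays (adjusted p = 0.113). With each array centred on its median, ALKBH2 stood at -0.14 and RIOX2 at -0.29, and neither was called (adjusted p = 0.103 and 0.0595).

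ALKBH8, which modifies the wobble base of transfer RNA, stood at -0.20 under DFO (95% interval -0.31 to -0.08, adjusted p = 0.0689), -0.17 under Deferasirox and -0.14 under OICR623. ALKBH3, which repairs alkylated bases in single-stranded nucleic acid, stood at -0.06, 0.01 and -0.03. Among ALKBH1, ALKBH4, ALKBH6 and ALKBH7 the differences lay between -0.13 and 0.01 for all 3 compounds, with no call.

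Between compounds, which differ in dose, 0 of the 35 genes were called by limma in any of the 3 pairs, where 0.0435% of all genes were called for Deferasirox against DFO, 0.168% for OICR623 against DFO and 0.0869% for OICR623 against Deferasirox. At an unadjusted p under 0.05 there were 2, 3 and 4 of the 35, where the shares of all genes were 10%, 5.67% and 8.54%. KDM3A gave the lowest values, -0.43 for OICR623 minus DFO (95% interval -0.65 to -0.21, adjusted p = 0.267) and -0.36 for OICR623 minus Deferasirox (-0.58 to -0.13, adjusted p = 0.326). For Deferasirox minus DFO it was -0.08 (-0.27 to 0.11). KDM7A gave 0.02 (-0.16 to 0.21), 0.05 (-0.14 to 0.24) and -0.03 (-0.19 to 0.13) in the same order. These intervals do not show that the compounds act alike.

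**Figure D4:**
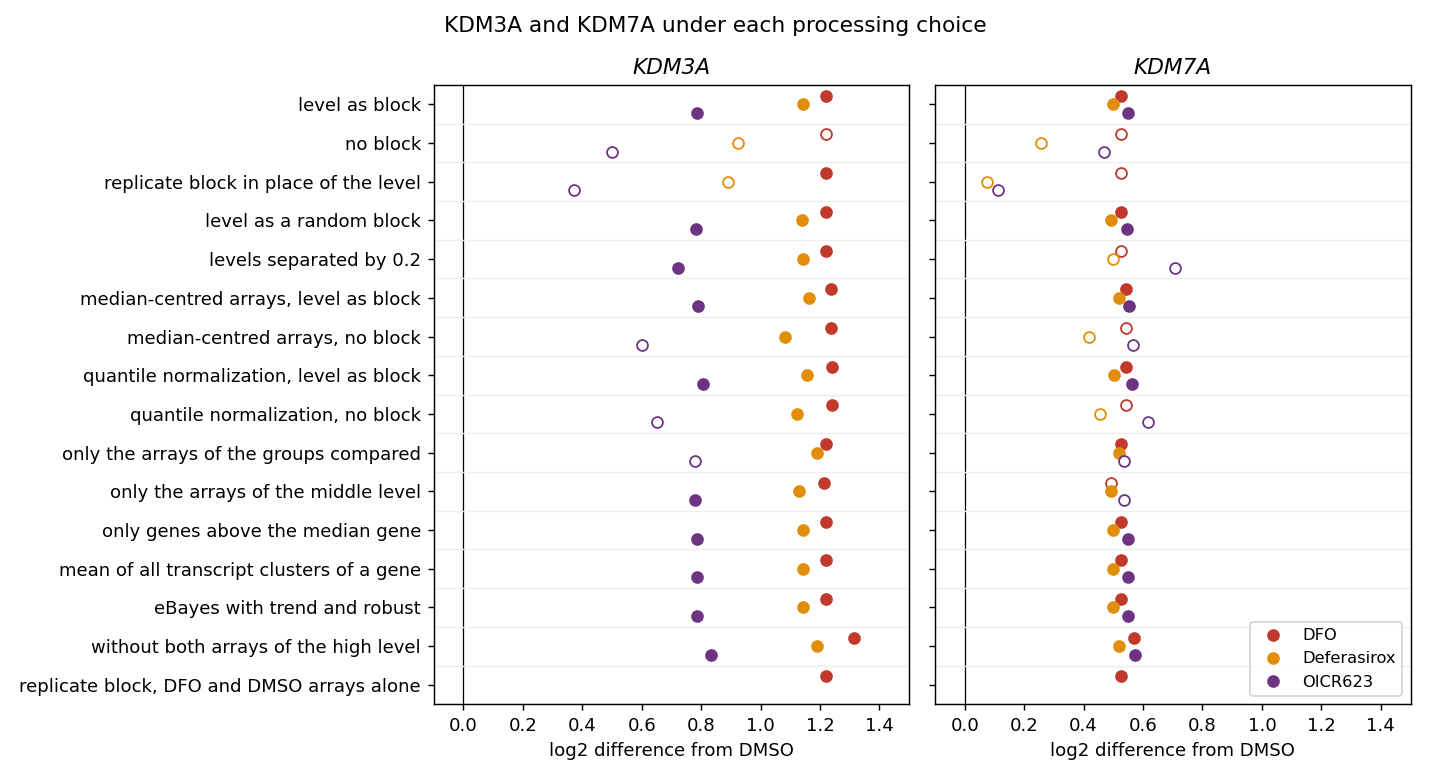
Log2 difference from DMSO of KDM3A (left) and KDM7A (right) for each compound (colour) under each processing choice (rows); filled points were called and open points were not. The points of DFO stay near 1.2 for KDM3A and near 0.5 for KDM7A in every row, and those of Deferasirox and OICR623 move towards 0 in the plain fit without a block and with the replicate number in place of the level.

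Most of 29 other measured iron-dependent oxygenases use 2-oxoglutarate, while HPD, HPDL and HGD among them do not. The 29 include the JmjC demethylase genes KDM5C and KDM6A, which were not called under any compound. Of the 29, 3 rose under DFO, 4 under Deferasirox and 2 under OICR623, and 0 fell (limma, 7, 5 and 5 at an unadjusted p under 0.05 in either direction). The called shares were 10.3%, 13.8% and 6.9%, against 4.6%, 5.84% and 0.734% of all genes. Their median differences were 0.03, 0.04 and 0.00. EGLN3, which hydroxylates prolines of HIF, rose by 1.98 under DFO, 1.94 under Deferasirox and 1.71 under OICR623, and P4HA1, a collagen prolyl hydroxylase, by 0.80, 0.91 and 0.58. EGLN1 rose by 0.33 under DFO and 0.30 under Deferasirox and stood at 0.31 under OICR623 (adjusted p = 0.0537). P4HA2 rose by 0.41 under Deferasirox. Without a block EGLN3 stayed called for all 3 compounds and the other calls of this list were lost. EGLN1 and P4HA2 then stood at 0.09 and 0.24 under Deferasirox, and the adjusted p of P4HA1 was 0.25, 0.52 and 1 for DFO, Deferasirox and OICR623. VEGFA, a HIF target set beside these genes, rose by 1.69, 1.76 and 1.02, whereas BNIP3, also a known HIF target, stood at -0.06, 0.00 and 0.12 with no call.

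KDM1A, a lysine demethylase that uses FAD in place of iron, stood at 0.01 under DFO, 0.04 under Deferasirox and 0.04 under OICR623. With its relative KDM1B and 6 partner genes, 0 of 8 were called by limma for any compound (1, 0 and 0 at an unadjusted p under 0.05). Of 27 genes listed as histone lysine methyltransferases, 0 rose and 3 fell under DFO, 1 rose and 3 fell under Deferasirox, and 0 were called by limma under OICR623 (7, 6 and 1 at an unadjusted p under 0.05). Those that fell under DFO were the lysine 9 methyltransferase genes SUV39H1 (-0.23) and SETDB1 (-0.21), and SETDB2 (-0.32). SUV39H1 (-0.18), SETDB2 (-0.37) and SETD1B (-0.22) fell under Deferasirox, and SMYD2 rose by 0.23. The called share of the list was 11.1% for DFO and 14.8% for Deferasirox, against 4.6% and 5.84% of all genes. Without a block no call of this list was left, and under Deferasirox SUV39H1, SETDB2, SETD1B and SMYD2 stood at -0.47, -0.64, -0.42 and 0.05 (adjusted p = 0.906, 0.906, 0.906 and 0.946).

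Of 16 genes of DNA methylation and base excision, UNG, which removes uracil from DNA, was the 1 called under DFO, at 0.22, and limma called 0 under Deferasirox or OICR623 (2 and 0 at an unadjusted p under 0.05). Of 15 writers and readers of N6-methyladenosine, METTL16 (-0.21) and YTHDF1 (-0.16) fell under DFO and YTHDF1 (-0.19) fell under Deferasirox, while limma called 0 under OICR623 (1 at an unadjusted p under 0.05). The called shares were 6.25% of the DNA list under DFO, and 13.3% and 6.67% of the N6-methyladenosine list under DFO and Deferasirox, against the same shares of all genes. Without a block the calls of UNG, METTL16 and YTHDF1 were lost, and YTHDF1 stood at -0.31 under Deferasirox. The medians of the last 4 lists lay between -0.05 and 0.02 for all compounds.

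**Figure D5:**
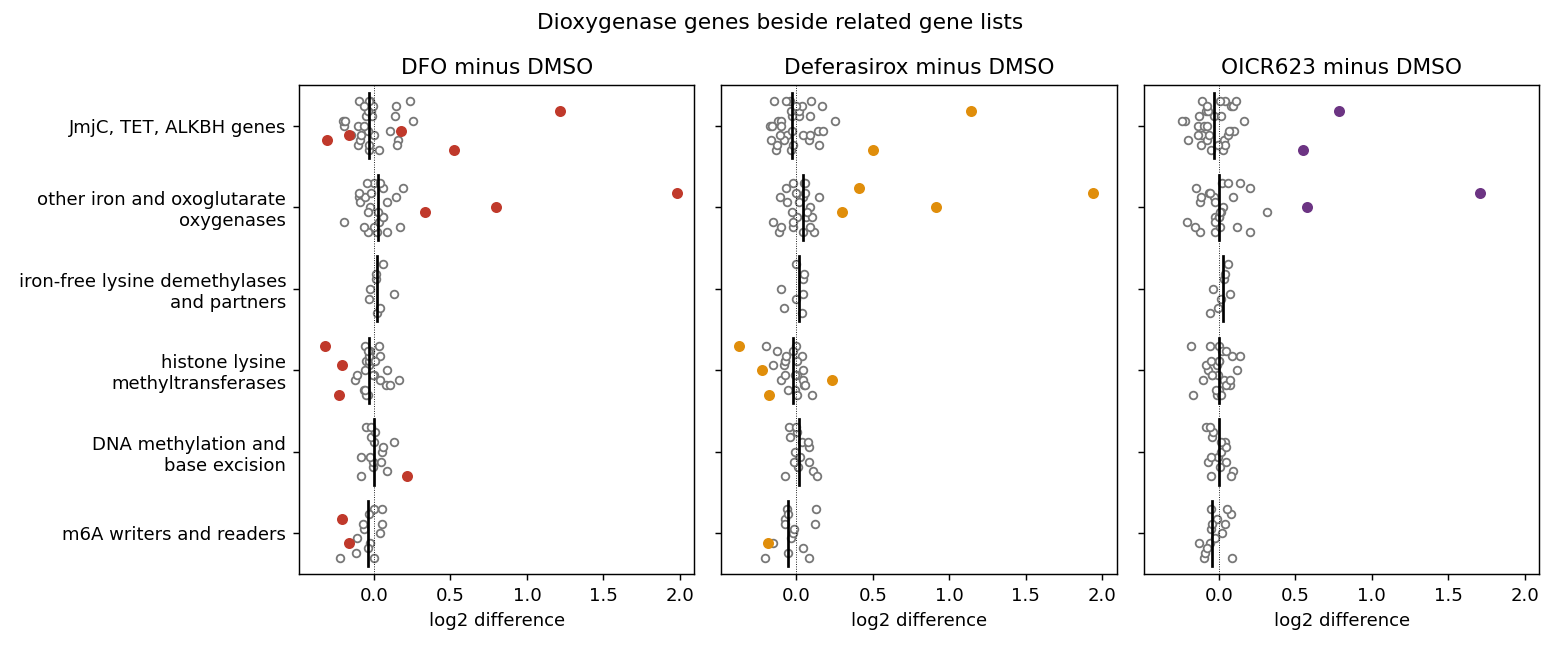
Log2 difference from DMSO of each gene (points, filled where called) in the 35 dioxygenase genes and 5 related lists (rows), with the list median as a black line, for DFO, Deferasirox and OICR623 (panels). Medians lie near 0 in every row, and the filled points far to the right are KDM3A, KDM7A, EGLN3 and P4HA1, with EGLN1 and P4HA2 where called.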

How the data were processed

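The deposited table holds log2 signals, 1 for each of 32321 transcript clusters of the Affymetrix Human Gene 1.0 ST array and 13 arrays; the log2 scale was read from the values. The submitters' processing notes name GCRMA and limma; versions and the role of each are not given in the sources used here. The table has no detection calls, so signal over background is unknown, and precision is limited by the number of arrays. GEO's platform annotation gave 1 symbol for 19158 clusters, several for 1388 and none for 11775. With the highest-mean cluster kept, 18404 genes were fitted with limma 3.58.1 (R 4.3.3, statmod 1.5.0) on group and level, the runs of array medians with no gap above 0.05, and p-values were adjusted over all genes by Benjamini-Hochberg. The 35 genes, the other lists, the level block and the naming rule (called genes and 12 set names in full, the others by range) were chosen with earlier results of these data known. The fit was tested on simulated data. Alternatives were fits without a block, with other blocks, scalings, filters and samples, and without each array. Deviations of same-numbered DFO and DMSO arrays from their group means correlated at 0.945, 0.662, 0.738 and 0.788. Such arrays were taken as pairs only where replicate number was the block, and the main fit did not pair them. These arrays also share levels, so the values mix pairing and level. Within the middle level, with 2 arrays per group, the correlation was 0.256 for DFO 2 with DMSO 2. It was -0.051 for Deferasirox 1 and 0.317 for OICR623 1 with DMSO 2. In the high and low levels pairing and level cannot be told apart.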

Additional observations from a re-analysis of the deposited data

Results flagged for a closer look

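Of 28 sets of 4 arrays, the DFO and DMSO arrays of 14 genes, 11 held an array whose gap to the nearest other as a share of the set's range exceeded Dixon's 95% critical value for 4 samples. Chance flags about 1 in 20 sets when sets are independent and no array is offset as a whole. Here the sets share the same DFO and DMSO arrays. The array was DFO 1 in 6 of the 11 and DMSO 1 in 5, and the gaps were 0.842 to 0.981 of the range. These are the 2 arrays of the high level, with medians of 7.17 and 7.19 against 6.52 to 6.69 elsewhere. The flags cannot be told apart from that offset. DFO 1 stood high for KDM2B at 8.84 (other DFO arrays 8.27 to 8.31), KDM4C at 8.29 (7.12 to 7.17), KDM6B at 9.11 (8.12 to 8.20), TET3 at 8.67 (7.74 to 7.79), ALKBH2 at 8.46 (7.46 to 7.49) and FTO at 10.84 (10.03 to 10.09). DMSO 1 stood high for KDM3A at 9.21 (other DMSO arrays 8.06 to 8.19), KDM4C at 8.44 (7.14 to 7.33), RIOX2 at 8.90 (8.18 to 8.19), ALKBH2 at 8.54 (7.60 to 7.75) and FTO at 10.89 (10.03 to 10.06). Without both arrays, a setting chosen after seeing the data, the blocked fit called the same 5 genes under DFO, KDM3A, KDM7A, ALKBH5, RIOX2 and ALKBH2. It also called KDM3A and KDM7A under Deferasirox and OICR623. The values of KDM3A and KDM7A (1.31 and 0.57 under DFO) were those found without DFO 1 alone or without DMSO 1 alone. The block takes up an array that is alone in its level, so these settings are not separate checks.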

How the results depend on the processing

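The count of called genes among the 35 was 5, 2 and 2 for DFO, Deferasirox and OICR623, and that among all genes 847, 1074 and 135. Without a block these were 0, 0 and 0 of the 35 and 45, 43 and 7 of all genes, and with the replicate block in place of the level they were 1, 0 and 0 of the 35 and 78, 127 and 10 of all genes. Levels separated by 0.2 gave 1, 1 and 1 of the 35 and 243, 249 and 36 of all. Median-centred arrays without a block gave 1, 1 and 0 and 154, 170 and 19, and quantile normalization without a block gave 1, 1 and 0 and 161, 185 and 25. The middle level alone gave 1 of the 35 under DFO and 1 under OICR623, and 274, 326 and 81 of all genes. With only the arrays compared, 2 of the 35 were called under DFO (KDM3A and KDM7A) and 0 under OICR623. Of all genes 656 and 32 were called under Deferasirox and OICR623, and the count under DFO is not given. With the 9202 genes above the median gene, which hold 28 of the 35, 8 and 4 of the 28 were called under DFO and Deferasirox (PHF2, HR and JMJD6 added under DFO, KDM4A and ALKBH5 under Deferasirox), and 1210, 1457 and 303 of the 9202. Under OICR623 eBayes with trend and robust gave 336 of all genes. Under DFO, level as a random block gave 3 of the 35 (KDM3A, KDM7A and RIOX2) and 798 of all genes, and median centring with the block 3 (KDM3A, KDM7A and ALKBH5) and 752 of all. The replicate block on the DFO and DMSO arrays alone, added after the data were seen, gave 2 (KDM3A and KDM7A). The count of all genes is not given for that setting, so these 2 cannot be set against a background. The median of the 35 genes, with the block -0.03 for each compound, was -0.22 (Deferasirox) and -0.17 (OICR623) without a block, where the median of all genes shifted by -0.15 and -0.11. It was -0.30 and -0.40 with the replicate block in place of the level, and 0.044 for OICR623 with levels separated by 0.2. Leaving out each array gave 2 to 5 of the 35 under DFO, 2 to 3 under Deferasirox and 0 to 2 under OICR623, and 494 to 846, 546 to 1066 and 33 to 173 of all genes. No call changed sign among the 14 genes given by array, and no gene of the 35 was called between compounds in any. Unless named, the cause was not tested.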
